A study of Mus musculus with 6 samples.

Results

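Imprinted genes were examined in RW4 mouse embryonic stem cells given 1 µM 4-hydroxytamoxifen (4OHT), given 1 µM Shld1, or left untreated. A list of 36 imprinted genes was taken, and a gene was read from the rows of the array table whose annotation names it, rows naming several genes included. Where several rows named a gene, the brightest was used. Of the 36 genes, 32 had a probe set; H19, Kcnq1ot1, Slc22a3 and Zrsr1 were not analysed here. The array table as a whole holds 35556 probe sets, of which 23410 carry a gene symbol, and these name 21335 genes.

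Total RNA was hybridised to single-colour Affymetrix arrays, 2 per group and 6 in all. 4OHT is a ligand of ERT2, a mutated estrogen receptor domain that holds a fused protein out of the nucleus until the ligand binds, and Shld1 is a ligand that stabilises proteins fused to an FKBP destabilising domain. The treatment time is not given in the labels. All cells were grown on gelatin in serum with leukemia inhibitory factor, and all RNA was treated with DNase. The labels tie 4OHT to an ERT2 induction system and Shld1 to an FKBP induction system, and call the untreated cells wild type. They do not say whether the treated cells carried a fusion protein, so agent and induction system cannot be told apart. They name the arrays of a group duplicates without saying that they came from separate cultures, so the p-values reflect how these arrays vary, and that variation may be technical.

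An imprinted gene is expressed mainly or only from the copy inherited from 1 parent. The choice is written as DNA methylation in the germ line, at control regions that each serve a cluster of neighbouring genes, and is kept through the wave of demethylation in the early embryo. Embryonic stem cells in culture are known to lose or gain such marks at some clusters, and imprinted genes are known for their roles in growth of the embryo and placenta. The arrays measured the sum of both copies and cannot show which allele was used.

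All 12 stem cell markers listed for the check of the label lay above background, among them Pou5f1, Sox2 and Nanog. Markers of other cell types were also measured, with median levels on the 6 arrays of 4.65 to 4.96 for endoderm, 3.94 to 4.40 for trophoblast, 3.43 to 3.71 for mesoderm, 4.38 to 4.88 for neural cells and 3.68 to 3.82 for fibroblasts. Levels are log2 signal throughout. Background was set at 3.72, the 95th percentile of the mean signal of 1023 olfactory receptor probe sets. In untreated cells, 10 of 12 measured endoderm markers lay above it, 6 of 11 trophoblast, 3 of 9 mesoderm, 6 of 9 neural and 5 of 10 fibroblast markers. Among the markers below it were Afp and Ttr of endoderm, Cdx2 and Elf5 of trophoblast, Kdr of mesoderm, and Postn and Lum of fibroblasts. Among those above it were Gata4, Gata6, Sox17 and Sox7 of endoderm and Ascl2 of trophoblast. The named markers are examples, and the counts cover every measured marker. The part of such cells in the values below was not tested. The samples were bulk cultures, so fewer cells of a type and less RNA per cell cannot be told apart. On the first 4OHT array and the second Shld1 array, signals over the table had a narrower spread (SDs of 2.29 and 2.24) than on the other 4 arrays (2.33 to 2.35).

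In untreated cells, 25 of the 32 measured imprinted genes lay above background, 78.1% of them, against 63.3% of all annotated probe sets. Probe sets differ in how strongly they bind, so levels of different genes are set against background only and not against each other. Of the 16 measured genes known to be expressed from the paternal copy, 14 lay above background; of the 15 known to be expressed from the maternal copy, 10 did. The 4 measured noncoding RNAs, Meg3, Rian, Mirg and Airn, were all below it. The protein genes below it were Usp29, Zim1 and Asb4. Across all 6 arrays, 23 genes stayed above the level on every array and 7 on none; Magel2 and Mkrn3 crossed it.

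**Figure D1:**
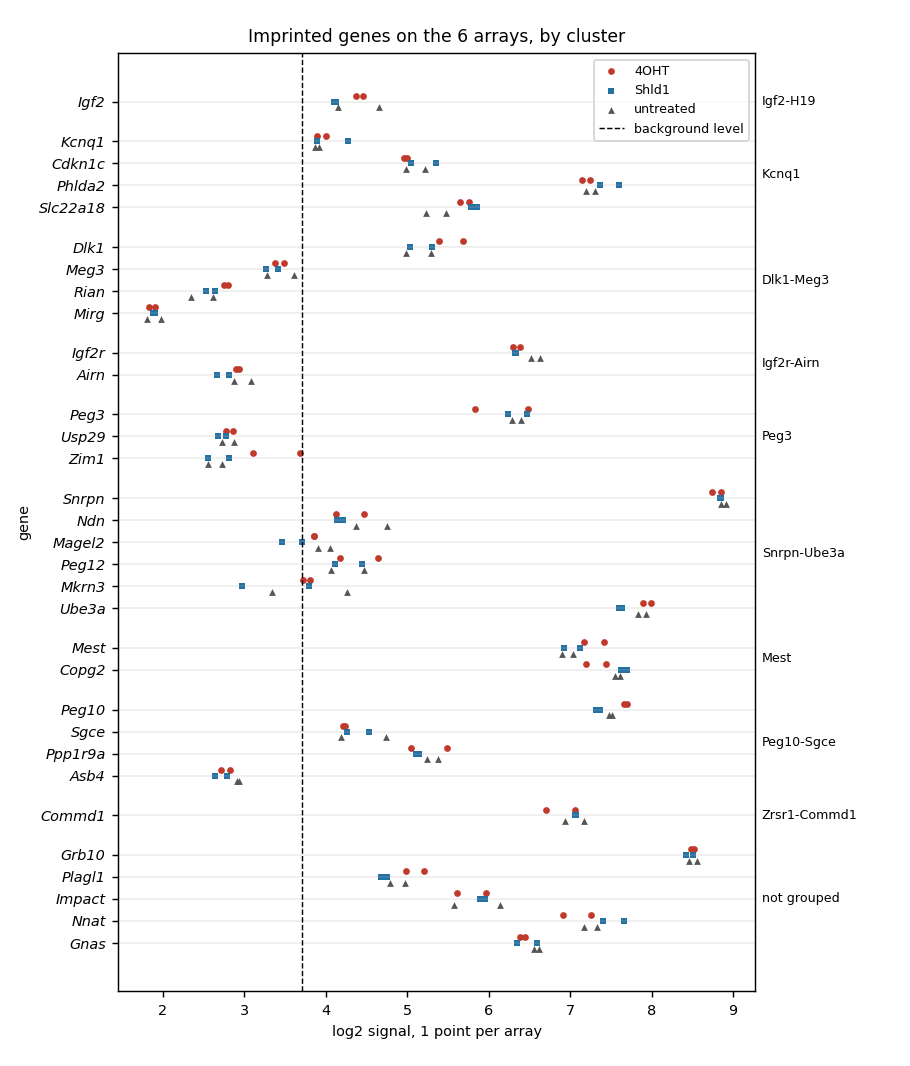
Log2 signal (horizontal axis) of the 32 measured imprinted genes (rows, grouped by cluster) on each of the 6 arrays, with 2 points per group and the background level of 3.72 as a dashed line. Meg3, Rian, Mirg, Airn, Usp29, Zim1 and Asb4 lie left of the line on all 6 arrays, and the points of Magel2 and Mkrn3 lie on both sides of it.

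Promoter sequences from RefSeq (build GRCm38.p6) covered 250 bases before to 50 bases after each start site. Those of 30 of the 36 genes were read, in 46 windows. They were searched on both strands for TGCCGC, the hexamer that the zinc finger protein ZFP57 binds when methylated. ZFP57 keeps methylation at imprinting control regions, and its gene was at 9.08 and 9.06 in untreated cells. The hexamer lay in at least 1 window of 10 of the 30 genes (33.3%), against 13.1% of all 27025 genes with a window. Genes with several windows have more chances of a match, and some windows overlap. By window, 11 of 46 held it (23.9%), against 11.6% of all 32851 windows. CG dinucleotides, the sites of DNA methylation, numbered 12.5 per window in the median over the 46 windows and 7 over all windows, so the hexamer, which contains CG, was searched in richer sequence here. Over the richest window of each gene, the median was 17.5 CG in the 20 of the 30 genes that lay above background and 10 in the 7 that lay below.

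Windows of 5 genes described below are shown. These are Meg3, whose RNA was not above background, and Peg3 and Usp29, which start back to back. The others are Zim1, with the largest difference under 4OHT, and Slc22a18, higher with either agent. Capitals mark TGCCGC or its reverse complement GCGGCA. The windows are, in order, chr12:109540746-109541045 (plus strand), chr7:6730370-6730669 (minus), chr7:6730333-6730632 (plus), chr7:6696383-6696682 (minus) and chr7:143473539-143473838 (plus).
Meg3: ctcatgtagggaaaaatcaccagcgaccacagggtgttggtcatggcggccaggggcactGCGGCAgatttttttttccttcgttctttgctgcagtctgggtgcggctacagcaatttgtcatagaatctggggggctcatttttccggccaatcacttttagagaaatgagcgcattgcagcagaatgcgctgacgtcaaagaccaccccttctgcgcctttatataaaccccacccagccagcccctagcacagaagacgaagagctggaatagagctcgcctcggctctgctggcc
Peg3: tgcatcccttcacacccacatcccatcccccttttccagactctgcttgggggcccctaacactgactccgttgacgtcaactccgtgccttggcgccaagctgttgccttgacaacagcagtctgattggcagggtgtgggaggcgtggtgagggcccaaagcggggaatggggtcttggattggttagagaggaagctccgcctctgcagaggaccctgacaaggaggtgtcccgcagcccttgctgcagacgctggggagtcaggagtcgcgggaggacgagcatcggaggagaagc
Usp29: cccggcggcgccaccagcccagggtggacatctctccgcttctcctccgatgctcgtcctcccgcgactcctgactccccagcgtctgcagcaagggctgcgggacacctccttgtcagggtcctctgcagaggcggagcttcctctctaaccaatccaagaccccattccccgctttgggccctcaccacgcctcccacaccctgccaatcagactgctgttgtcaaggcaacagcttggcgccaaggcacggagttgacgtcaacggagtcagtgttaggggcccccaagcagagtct
Zim1: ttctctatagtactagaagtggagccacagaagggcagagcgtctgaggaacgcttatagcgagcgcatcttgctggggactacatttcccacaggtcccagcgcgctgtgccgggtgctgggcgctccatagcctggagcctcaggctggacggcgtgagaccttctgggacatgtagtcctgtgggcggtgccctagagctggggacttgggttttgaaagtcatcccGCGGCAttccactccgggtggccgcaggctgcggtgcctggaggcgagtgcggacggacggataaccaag
Slc22a18: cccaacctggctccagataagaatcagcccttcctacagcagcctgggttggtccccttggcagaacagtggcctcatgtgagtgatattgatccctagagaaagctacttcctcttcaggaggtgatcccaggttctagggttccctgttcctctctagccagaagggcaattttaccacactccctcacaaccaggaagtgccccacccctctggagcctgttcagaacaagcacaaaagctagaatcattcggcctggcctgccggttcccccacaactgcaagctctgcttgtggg
The Meg3 and Zim1 windows each held 1 hexamer and the other 3 windows none. A second Meg3 window, not shown, had 0 hexamers and 1 CG. The Peg3 and Usp29 windows shared 263 bases, read from opposite strands. Slc22a18 had 2 CG in its window, against 20 in that of Zim1. A match is a description of these letters and says nothing of binding.

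The Dlk1-Meg3 cluster lies on chromosome 12. Dlk1, the paternally expressed gene for a membrane protein related to the Notch ligands, was the 1 member of this cluster above background. Its level was 5.69 and 5.39 with 4OHT, 5.04 and 5.30 with Shld1, and 5.29 and 4.99 in untreated cells. Both 4OHT arrays lay above all 4 others. The fitted difference between 4OHT and untreated cells was 0.40 (SE 0.17), with a 95% interval that held 0; it was 0.25 without the first 4OHT or the second untreated array.

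The maternal noncoding RNAs of the cluster were below background on all arrays. Meg3, a long RNA made from the maternal chromosome, was at 3.38 and 3.50 with 4OHT, 3.27 and 3.42 with Shld1, and 3.29 and 3.61 in untreated cells. Rian, which hosts small nucleolar RNAs, was at 2.75 and 2.80, 2.53 and 2.64, and 2.35 and 2.62 in the same order of groups. The 4OHT arrays of Rian did not overlap the untreated ones, with a difference of 0.29 (SE 0.14). Its second, dimmer probe set, which also names a small RNA gene, differed by 0.21. Mirg, which hosts microRNAs and shares its probe set with Mir410, was between 1.81 and 1.98 on every array.

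The microRNA precursors of this cluster were read from 38 probe sets that name 1 gene each, and 9 of them lay above background in untreated cells. The other 29 did not. A microRNA pairs with messenger RNAs mainly through its seed, bases 2 to 8. Mature sequences (RefSeq, GRCm38.p6, chromosome 12, plus strand) are shown for Mir370 and Mir431, the precursors above background that had an unadjusted p under 0.05 with 4OHT, and for Mir667, above background on all 6 arrays with groups that overlapped; capitals mark the seed.
miR-370-5p: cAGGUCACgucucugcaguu
miR-370-3p: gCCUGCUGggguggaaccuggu
miR-431-5p: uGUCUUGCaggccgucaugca
miR-431-3p: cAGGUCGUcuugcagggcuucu
miR-667-5p: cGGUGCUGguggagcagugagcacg
miR-667-3p: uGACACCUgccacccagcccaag
These 6 have 6 different seeds. Among the 80 mature sequences matched to the measured small RNAs of all imprinted clusters there were 78 seeds; miR-379-3p shares its seed with miR-411-3p, and miR-376b-5p with miR-376c-5p.

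Mir370 was at 4.73 and 4.18 with 4OHT, 4.04 and 4.03 with Shld1, and 3.89 and 3.85 in untreated cells. Both 4OHT arrays lay above the rest, with a difference from untreated of 0.59 (SE 0.18; limma, adjusted p = 0.959). Mir431 was at 4.48 and 4.04 with 4OHT, 4.00 and 3.74 with Shld1, and 3.85 and 3.78 in untreated cells, a difference of 0.44 (SE 0.18) between 4OHT and untreated. In untreated cells both precursors lay just above the background level of 3.72. For both, the first 4OHT array, one of the narrower spread, was the higher; without it the differences were 0.31 for Mir370 and 0.22 for Mir431, and without the second 4OHT array that of Mir431 was 0.67. Mir667 was at 7.13 and 6.80 with 4OHT, 6.81 and 6.85 with Shld1, and 6.91 and 6.63 without, so the groups overlapped.

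**Figure D2:**
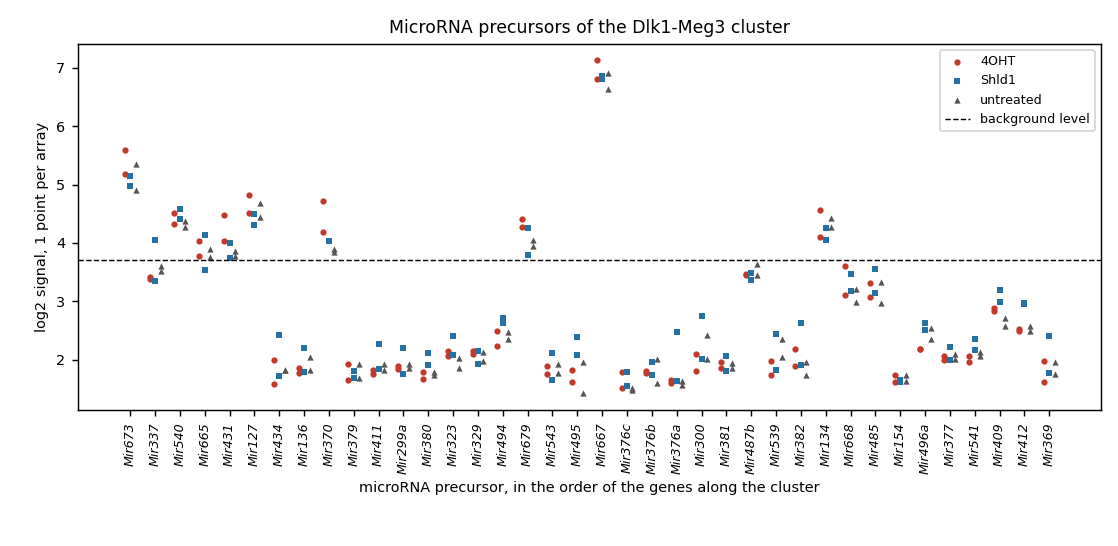
Log2 signal (vertical axis) of the 38 microRNA precursors of the Dlk1-Meg3 cluster, in their order along the cluster, with 1 point per array and the background level of 3.72 as a dashed line. In untreated cells 9 precursors lie above the line; the second Shld1 array holds the upper Shld1 point for many precursors near 2.

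Over all imprinted clusters, 42 small RNAs of 59 listed had a probe set of their own, and 11 lay above background. With Shld1, 33 of the 42 were higher than untreated, against 48.7% of all probe sets, and the median difference of the 42 was 0.10. The median over the 42 relative to the untreated mean was 0.26 on the second Shld1 array and -0.04 on the first, and olfactory receptor probe sets, which stand for background, were at 0.17 and -0.06 on the same arrays. The part of this array-wide difference in the small RNA values was not tested. Mir412, Mir409 and Mir495 had an unadjusted p under 0.05 with Shld1, all below background, which is 7.14% of the 42, against 4.24% of all probe sets. Mir412 was at 2.96 and 2.97 with Shld1, against 2.57 and 2.50 in untreated cells (difference 0.43, SE 0.13). Mir409 was at 2.98 and 3.20 with Shld1, against 2.71 and 2.57 in untreated cells (difference 0.45, SE 0.14), and both of its Shld1 arrays lay above both untreated ones. With 4OHT it was at 2.89 and 2.83, also above both untreated arrays. The Mir495 difference was 0.54 (SE 0.20), and 0.28 without the first untreated array. Mir298 of the Gnas cluster, also below background, was at 3.25 and 3.24 with 4OHT, against 2.94 and 2.61 in untreated cells (difference 0.47, SE 0.16, and 0.31 without the second untreated array). With 4OHT, 3 of the 42 (7.14%) had an unadjusted p under 0.05, Mir370, Mir431 and Mir298, against 4.93% of all probe sets. In 4OHT against Shld1, Mir298 was higher and Mir412, Mir495, Mir496a and Mir335 were lower at an unadjusted p under 0.05, all 5 below background, which is 11.9% of the 42, against 5.65% of all probe sets. Limma called 0 of the 42 in any comparison.

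The Kcnq1 cluster on chromosome 7 holds maternally expressed genes, several of which restrain growth. Slc22a18, a gene for a membrane transporter protein, was at 5.65 and 5.76 with 4OHT, 5.78 and 5.86 with Shld1, and 5.48 and 5.23 in untreated cells. All 4 treated arrays lay above both untreated arrays. The difference from untreated was 0.35 with 4OHT (SE 0.14, 95% interval 0.03 to 0.68; limma, adjusted p = 0.959) and 0.46 with Shld1 (SE 0.14, 0.14 to 0.79; limma, adjusted p = 0.998). Both comparisons used the same 2 untreated arrays, for this gene and for every other. Without the second untreated array the differences were 0.23 and 0.34.

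Of its measured neighbours, Phlda2, which limits growth of the placenta, was at 7.25 and 7.14 with 4OHT, 7.60 and 7.37 with Shld1, and 7.30 and 7.20 in untreated cells, so only the Shld1 arrays lay apart from untreated (difference 0.23, SE 0.14). Cdkn1c, a cell cycle inhibitor, ranged from 4.96 to 5.35, with both ends in treated cells. Its groups overlapped in both comparisons with untreated cells. Kcnq1, a potassium channel gene, lay just above background at 3.92 and 3.87 in untreated cells, and its groups overlapped in all 3 comparisons.

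Igf2, the paternally expressed fetal growth factor, was at 4.37 and 4.46 with 4OHT, 4.10 and 4.13 with Shld1, and 4.15 and 4.66 in untreated cells. The untreated arrays differed by more than the groups did, and the fitted differences were 0.01 (SE 0.18) with 4OHT and -0.29 (SE 0.18) with Shld1. Igf2r, the maternally expressed receptor that removes IGF2 from the cell surface, was at 6.30 and 6.39 with 4OHT, 6.33 on both Shld1 arrays, and 6.63 and 6.52 in untreated cells. All 4 treated arrays lay below both untreated ones, with differences of -0.24 (SE 0.13) with 4OHT and -0.25 (SE 0.13) with Shld1. Both 95% intervals held 0, and both differences used the same untreated arrays. Airn, the paternal antisense RNA that silences Igf2r, was between 2.67 and 3.08 on all arrays. It overlaps Igf2r, and the sources used here do not say whether the labelling kept the strand.

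In the Peg3 cluster, the paternally expressed zinc finger gene Peg3 was above background and its neighbours were not. Peg3 was at 5.83 and 6.48 with 4OHT, 6.24 and 6.47 with Shld1, and 6.40 and 6.29 in untreated cells; the first 4OHT array lay apart from the other 5. Usp29, the ubiquitin protease gene that starts back to back with Peg3, was between 2.68 and 2.88 on all arrays. Zim1, a maternally expressed zinc finger gene, was at 3.68 and 3.11 with 4OHT, 2.82 and 2.55 with Shld1, and 2.56 and 2.73 in untreated cells. Both 4OHT arrays lay above the other 4, and all 6 lay below background. The difference was 0.75 between 4OHT and untreated (SE 0.20, 95% interval 0.28 to 1.21; limma, adjusted p = 0.959) and 0.71 between 4OHT and Shld1 (SE 0.20; limma, adjusted p = 0.872). Without the first 4OHT array, the array of narrower spread, these were 0.46 and 0.42, and the second was 0.29 without both arrays of narrower spread.

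The Snrpn-Ube3a cluster, whose human counterpart is that of the Prader-Willi and Angelman syndromes, had all 6 of its genes above background in untreated cells. Snrpn, a splicing protein gene whose probe set also names Snurf, was at 8.75 and 8.85 with 4OHT, 8.85 and 8.84 with Shld1, and 8.86 and 8.92 in untreated cells. Its differences of -0.09 and -0.04 from untreated were smaller than their SE of 0.13. The median difference over the 6 genes was -0.06 with 4OHT and -0.32 with Shld1.

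Magel2 and Ndn, neighbouring MAGE family genes expressed from the paternal copy, lay lower with Shld1 than in untreated cells without overlap. Magel2 was at 3.86 on both 4OHT arrays, 3.47 and 3.71 with Shld1, and 3.91 and 4.06 in untreated cells, a difference of -0.39 (SE 0.14, 95% interval -0.72 to -0.06; limma, adjusted p = 0.998) between Shld1 and untreated. Both Shld1 arrays were below background, which bounds how low a level can be read. Ndn was at 4.47 and 4.13 with 4OHT, 4.22 and 4.14 with Shld1, and 4.38 and 4.75 in untreated cells, a difference of -0.38 (SE 0.18) with Shld1, and -0.20 without the second untreated array. Mkrn3, a RING finger gene beside them, had the widest replicate gaps of the 32 genes, 2.97 against 3.79 on the Shld1 arrays and 3.34 against 4.27 on the untreated ones. Peg12, a paternally expressed gene of the cluster, overlapped in all 3 comparisons.

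Ube3a, the ubiquitin ligase gene that is imprinted in neurons and read from both copies in most other cells, had a probe set that also names Srebf2, P3h3 and a further gene, so its values cannot be given to Ube3a alone. They were 7.89 and 7.999 with 4OHT, 7.64 and 7.60 with Shld1, and 7.83 and 7.94 in untreated cells. The Shld1 arrays lay below the other 4, with a difference of 0.33 (SE 0.13) between 4OHT and Shld1.

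Mest and Copg2 lie tail to tail on chromosome 6. Mest, a paternally expressed hydrolase family gene, was at 7.42 and 7.17 with 4OHT, 7.12 and 6.93 with Shld1, and 7.03 and 6.90 in untreated cells. Copg2, a coat protein subunit gene expressed from the maternal copy in some tissues, was at 7.19 and 7.44 with 4OHT, 7.62 and 7.70 with Shld1, and 7.61 and 7.55 in untreated cells. With 4OHT, then, the Mest arrays lay above and the Copg2 arrays below both untreated arrays, with differences of 0.33 (SE 0.15) and -0.27 (SE 0.14) whose 95% intervals both held 0. Without the first 4OHT array they were 0.20 and -0.14. Copg2 differed by -0.35 (SE 0.14) between 4OHT and Shld1, by -0.23 without the first 4OHT array and by -0.18 without both arrays of narrower spread.

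In the Peg10-Sgce cluster, Peg10, a paternally expressed gene derived from a retrotransposon and needed in the placenta, was at 7.67 and 7.70 with 4OHT, 7.32 and 7.36 with Shld1, and 7.52 and 7.48 in untreated cells, so the 3 groups did not overlap. The difference was 0.18 (SE 0.12) between 4OHT and untreated, -0.16 (SE 0.12) between Shld1 and untreated, and 0.34 (SE 0.12; limma, adjusted p = 0.872) between 4OHT and Shld1. Sgce, the epsilon-sarcoglycan gene, which starts beside Peg10, overlapped in both comparisons with untreated cells. So did Ppp1r9a, a gene for an actin-binding protein, with 4OHT, while its Shld1 arrays lay lower (5.14 and 5.11, against 5.24 and 5.38 untreated). Asb4 was between 2.64 and 2.94 and below background on all arrays.

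Of the remaining genes, Grb10, an adaptor that damps insulin and growth factor signals, had all 6 arrays between 8.42 and 8.55. Commd1 was at 6.71 and 7.06 with 4OHT, 7.07 and 7.06 with Shld1, and 7.17 and 6.94 in untreated cells, and its groups overlapped in all comparisons. Plagl1, a zinc finger regulator of growth genes, was at 5.21 and 4.99 with 4OHT, 4.75 and 4.68 with Shld1, and 4.98 and 4.79 in untreated cells. The 3 groups of Plagl1 did not overlap, and the difference between 4OHT and Shld1 was 0.38 (SE 0.14), and 0.24 without both arrays of narrower spread. Nnat, a small membrane protein gene of the nervous system, was at 6.91 and 7.25 with 4OHT, 7.41 and 7.66 with Shld1, and 7.17 and 7.33 in untreated cells, a difference of -0.45 (SE 0.17) between 4OHT and Shld1. It was -0.28 without the first 4OHT array and -0.15 without both arrays of narrower spread. Impact, a regulator of translation, ranged from 5.58 to 6.14, with both ends in untreated cells. The Gnas probe set, which also names its antisense transcript, was at 6.38 and 6.45 with 4OHT, 6.59 and 6.35 with Shld1, and 6.55 and 6.62 in untreated cells.

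**Figure D3:**
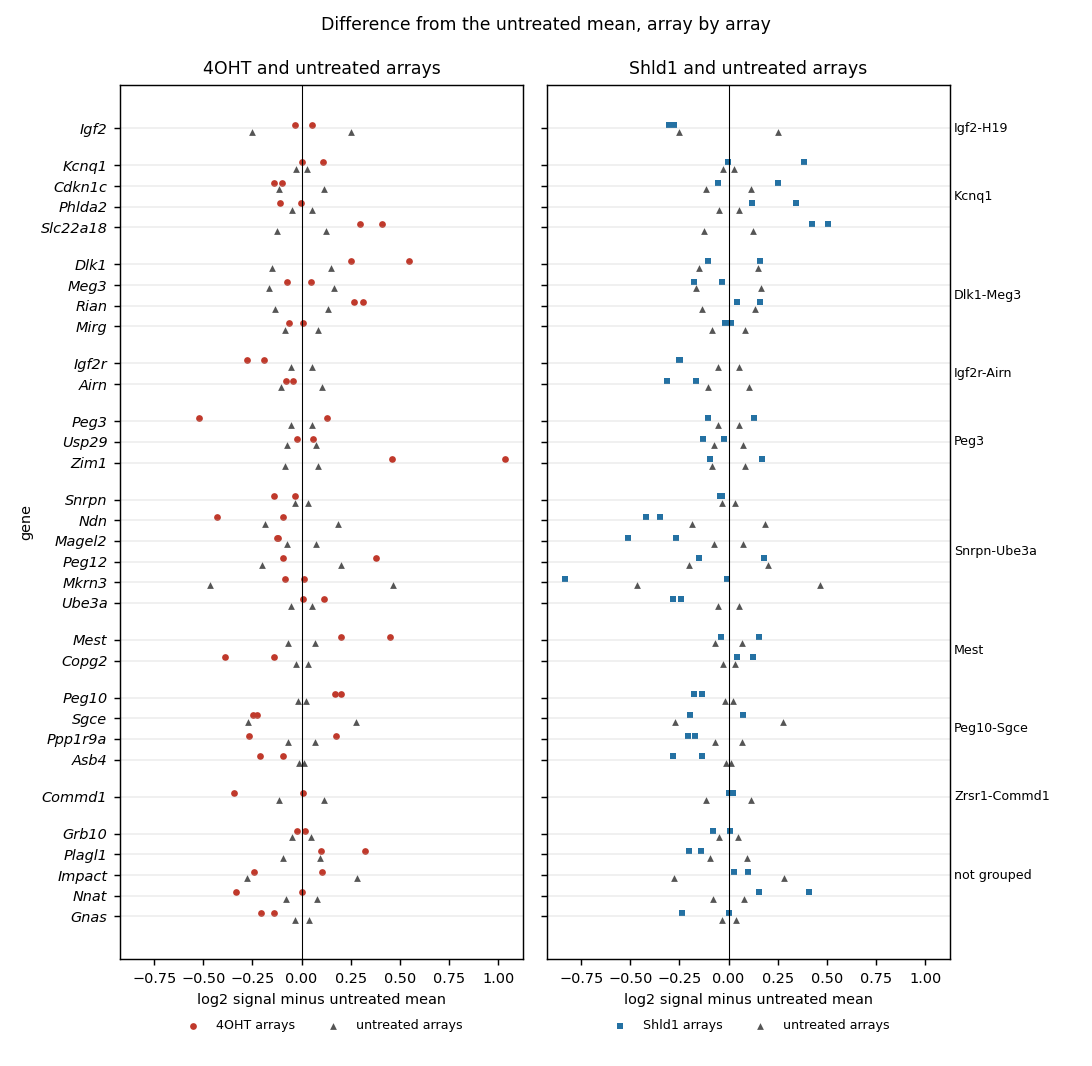
Log2 signal of each array minus the mean of the untreated arrays (horizontal axis) for the 32 imprinted genes (rows), with the 4OHT arrays (left) and the Shld1 arrays (right), each beside the 2 untreated arrays. With 4OHT both Zim1 points lie right of both untreated points, the first array at 1.03 and the second at 0.46; with either agent both Slc22a18 points lie right of both untreated points.

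No imprinted gene passed the test in any comparison. In 4OHT against untreated, limma called 0 of the 32 genes at an adjusted p under 0.05, with 0% of all 23410 probe sets called. An unadjusted p under 0.05 was found for 2 of the 32 genes (6.25%), Zim1 and Slc22a18, both higher, against 4.93% of all probe sets (2.51% higher and 2.42% lower). The count was 1 without the first 4OHT or the second untreated array, 3 without either Shld1 array, 4 without the first untreated array and 5 without the second 4OHT array. The arrays of these groups did not overlap for 13 genes (40.6%), 7 higher and 6 lower, against 38.1% of all probe sets (17.6% higher and 20.4% lower). Both shares lay near the background. The median difference was -0.04 over the 32 genes and -0.01 over all probe sets. Of the 32 genes, 12 were higher and 20 lower, and of all probe sets 48.3% were higher. The 95% interval lay within 2-fold for 31 of the 32 genes, and that of Zim1 did not. For the genes below background, such an interval bounds the array signal and not a change in their RNA.

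In Shld1 against untreated, limma again called 0 of the 32 genes, with 0% of all probe sets called. Slc22a18, higher, and Magel2, lower, had an unadjusted p under 0.05, 2 of 32 genes (6.25%) against 4.24% of all probe sets (2.33% higher and 1.91% lower). The count was 0 without the second untreated array, 5 without the first, and 3 without the first Shld1 array. The groups did not overlap for 15 genes (46.9%), 4 higher and 11 lower, against 32.5% of all probe sets, of which 15.2% were higher and 17.4% lower. The median difference was -0.04, against -0.01 over all probe sets. The 95% interval lay within 2-fold for all genes but Mkrn3, which for the genes below background again bounds the signal only.

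In 4OHT against Shld1, both at 1 µM, 0 of the 32 genes and 0% of all probe sets were called by limma. The 2 agents are unrelated in structure, and this was the 1 pair of agents compared. An unadjusted p under 0.05 was found for 6 genes (18.8%), against 5.65% of all probe sets (2.67% higher and 2.98% lower): Zim1, Peg10, Plagl1 and the shared probe set of Ube3a were higher with 4OHT, and Nnat and Copg2 lower. The groups did not overlap for 16 genes (50%), 10 higher and 6 lower, against 31% of all probe sets (15.5% in each direction). Both shares were above the background, and no test of the list was made. The count of 6 was 1 without the first 4OHT array, 3 without the first Shld1 array or either untreated array, and 2 without both arrays of narrower spread. The median difference over the 32 genes was 0.07, and -0.05 over the genes that stayed once the dimmest 40% of probe sets were left out. The 95% intervals of 30 genes stayed inside 2-fold, those of Zim1 and Mkrn3 did not, and the median SE was 0.15. Here too, the intervals of genes below background bound the signal only.

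**Figure D4:**
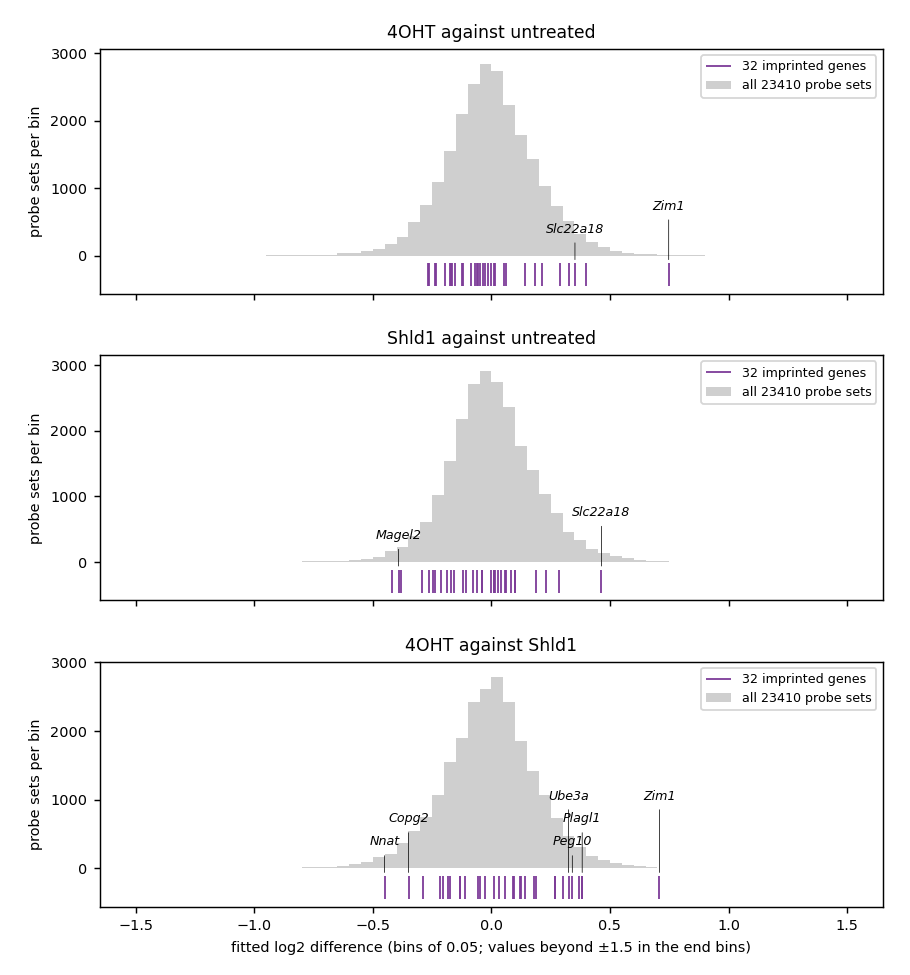
Fitted log2 differences (horizontal axis) of all 23410 annotated probe sets (grey bars, probe sets per bin of 0.05) and of the 32 imprinted genes (purple ticks) in the 3 comparisons, with the genes of unadjusted p under 0.05 named. The ticks lie within the spread of all probe sets, and 6 genes are named in 4OHT against Shld1, against 2 in each comparison with untreated cells.

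A second list held 49 other imprinted genes, of which 43 had a probe set and 26 lay above background in untreated cells. Limma called none of the 43 in any comparison (0 genes). With 4OHT, 3 of the 43 (6.98%) had an unadjusted p under 0.05, against 4.93% of all probe sets; with Shld1 2 did (4.65%, against 4.24%), and in 4OHT against Shld1 also 2 (4.65%, against 5.65%). Dhcr7, the last enzyme of cholesterol synthesis, was at 6.44 and 6.67 with 4OHT and 6.87 and 6.94 in untreated cells, a difference of -0.35 (SE 0.14). Zdbf2 was at 7.60 and 7.72 with 4OHT, 7.41 and 7.56 with Shld1, and 7.38 and 7.32 untreated. It differed by 0.31 (SE 0.13) between 4OHT and untreated, and both Shld1 arrays also lay above the untreated ones. Ddc, the gene for aromatic amino acid decarboxylase, was at 4.202 and 4.06 with 4OHT, 4.08 and 3.98 with Shld1, and 4.66 on both untreated arrays. All 4 treated arrays lay below the untreated ones, with differences of -0.53 (SE 0.13) with 4OHT and -0.63 (SE 0.13) with Shld1. Both Ddc differences used the same untreated arrays. Calcr, the calcitonin receptor gene, had the other unadjusted p under 0.05 with Shld1, at 2.92 and 2.70 against 3.36 and 3.18 in untreated cells, all below background. Rtl1 and Dio3, the other protein genes listed from the Dlk1-Meg3 cluster with the paternal copy in use, were below background in untreated cells.

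A further list held 30 genes that keep or read imprints, and all 29 with a probe set of their own lay above background in untreated cells. Limma called 0 of them in any comparison. With 4OHT, Dnmt3l, the cofactor of DNA methylation in germ cells, was at 5.92 and 5.87, against 6.33 and 6.28 in untreated cells (difference -0.41, SE 0.15). With Shld1, Dnmt3l was at 6.22 and 5.86, also below both untreated arrays (difference -0.26, SE 0.15). Its 4OHT and Shld1 arrays overlapped, and both Dnmt3l differences used the same untreated arrays. Dnmt3a, which methylates DNA anew, was at 6.85 and 7.13 with 4OHT, 7.33 and 7.45 with Shld1, and 7.28 and 7.40 in untreated cells; it differed by -0.35 (SE 0.15) between 4OHT and untreated and by -0.40 (SE 0.15) between 4OHT and Shld1. Without the first 4OHT array these Dnmt3a differences were -0.21 and -0.26. Dnmt3l and Dnmt3a were the 2 of 29 genes (6.90%) with an unadjusted p under 0.05 with 4OHT, against 4.93% of all probe sets; with Shld1 there were 0, against 4.24%, and in 4OHT against Shld1 2 (6.90%, against 5.65%).

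Zfp57 was at 9.28 and 9.43 with 4OHT, 9.04 and 9.08 with Shld1, and 9.08 and 9.06 in untreated cells, with both 4OHT arrays above the other 4 (difference from untreated 0.28, SE 0.13). Dppa3, which protects imprints in the early embryo, was at 3.41 and 3.66 with 4OHT, 3.43 and 3.66 with Shld1, and 4.14 and 3.74 in untreated cells, so the treated arrays were all below background. Tet2, an enzyme that oxidises methylated DNA, differed by 0.35 (SE 0.14) between 4OHT and Shld1. Of the 29 genes, 8 were higher and 21 lower with 4OHT (median -0.06), and 7 higher and 22 lower with Shld1 (median -0.08). Of all probe sets, 48.3% were higher with 4OHT and 48.7% with Shld1. Of the 12 stem cell markers, also all above background, 5 were higher and 7 lower with 4OHT (median -0.004). With Shld1, 2 of those markers were higher and 10 lower (median -0.08). Relative to the untreated mean, the median of the 29 genes was -0.13 on the first 4OHT array and 0.03 on the second, and -0.11 and -0.09 on the Shld1 arrays.

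**Figure D5:**
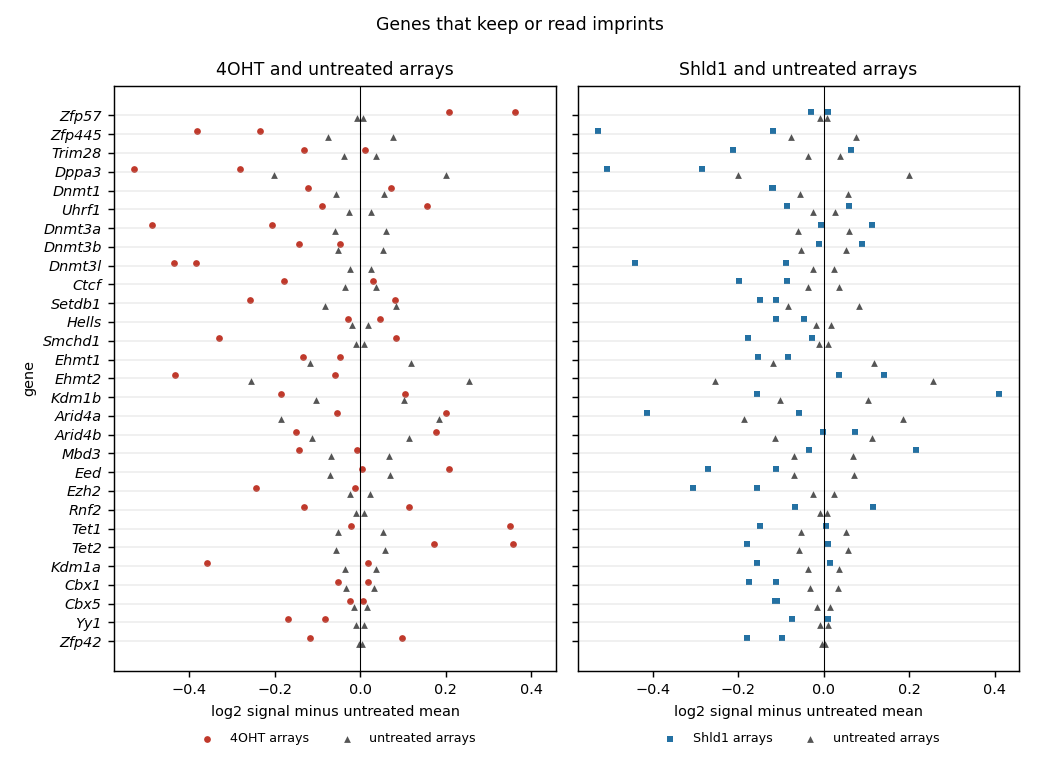
Log2 signal of each array minus the untreated mean (horizontal axis) for 29 genes that keep or read imprints (rows), with the 4OHT arrays (left) and the Shld1 arrays (right) beside the 2 untreated arrays. Both Dnmt3l points with 4OHT lie left of the untreated points, and both Zfp57 points with 4OHT lie right of them. Both Dnmt3l points with Shld1 also lie left of the untreated points.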

How the data were processed

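Gene expression was measured on 6 arrays, with the groups taken from the sample titles. The authors deposited log2 signals, a value for each of 35556 probe sets on each array; that scale was read from their range. The background correction, summarization, normalization and genome build are not given in the sources used here. Of tools, limma 3.14 is listed, per the submitters' processing notes, with no step tied to it. Depth has no count on arrays, and the 2 arrays per group limit the precision.

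Genes were named from the platform annotation: 21789 probe sets had 1 symbol, 1621 had several and 12146, array controls among them, had none and were left out. The 23410 with a symbol were fitted with limma 3.58.1 in R 4.3.3 (3 group means fitted jointly to the 6 arrays, moderated by empirical Bayes, two-sided tests, Benjamini-Hochberg adjustment over 23410, threshold 0.05). Differences are log2, the first-named group minus the second. An exact test of 2 arrays against 2 cannot go below p = 0.333, so none was used. Of the 32 genes, 28 had a probe set with 1 symbol and 4 (Mirg, Snrpn, Ube3a and Gnas) shared theirs; the other lists used only probe sets with 1 symbol.

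For the first list of imprinted genes, values on every array are given where the unadjusted p was under 0.05. They are also given for the 2 largest positive and negative statistics per comparison, and for at least 1 gene above background per cluster. From each other list, up to 4 genes with the smallest p in a comparison were taken, and not all have values on every array. The genes and lists were chosen with earlier results of these data known. The steps were tested on simulated data. Alternatives covered normalization, centring, moderation, weights, the genes tested, the replicate number as a block, and arrays left out.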

Additional observations from a re-analysis of the deposited data

How the results depend on the processing

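The count of called probe sets was 0 in each of the 3 comparisons, as was that of called imprinted genes, under all 18 alternatives tried, and the smallest adjusted p among the imprinted genes in any of them was 0.295 (limma, Shld1 against untreated). The unadjusted count below 0.05 ranged from 1 to 5 of 32 genes with 4OHT, from 0 to 5 with Shld1 and from 1 to 7 in 4OHT against Shld1. With 4OHT it was 1 without untreated replicate 2 or 4OHT replicate 1, 4 without untreated replicate 1 and 5 without 4OHT replicate 2; with Shld1 it was 0 without untreated replicate 2 and 5 without untreated replicate 1. The median difference over the imprinted genes moved by more than the spread between replicates in 1 case. That was 4OHT against Shld1 without the dimmest 40% of probe sets (-0.0500, against 0.07). Leaving out probe sets does not change the fitted difference of a gene that stays, so the median moved because dim genes left the list. No imprinted gene's difference with an unadjusted p under 0.05 changed its sign under these alternatives. For the genes of the other lists, leaving out each array was the 1 alternative run, chosen after seeing the data, and no such difference changed its sign there. Pairing of the arrays by replicate number was not seen, though 2 arrays per group cannot exclude it. The correlations of replicate differences between groups were 0.05, -0.08 and -0.19, and with the replicate number as a block the same calls of 0 were made. With the median of the olfactory receptor probe sets as background, at 2.39, 31 of the 32 genes lay above it. Signal over background limits Zim1, Usp29, Asb4, Magel2, Mkrn3, Kcnq1 and the noncoding RNAs. It also limits the small RNAs below or just above background, Mir370 and Mir431 among them.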
